A study of Mus musculus with 2 samples.

Results

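Single cells from mouse epiblast stem cell and embryoid body cultures were compared by the oligo tag they carried, CMO311 or CMO312. A cell tag of this kind is a short DNA oligo, held on the cell surface, that is meant to record which sample a cell came from before samples are pooled. A tag count is a number of UMIs (unique molecular identifiers, each standing for 1 captured molecule). Called cells were kept where 1000 or more genes were detected and mitochondrial UMIs did not pass 10%, and the sides were then chosen by their tag counts. The CMO311 side held kept cells with at least 2456 CMO311 UMIs and fewer than 340 CMO312 UMIs. The CMO312 side held those with at least 956 CMO312 UMIs and fewer than 1228 CMO311 UMIs. Of 16841 kept cells, out of 21593 called cells, 1285 (7.63%) lay on the CMO311 side and 2775 (16.5%) on the CMO312 side, 4060 (24.1%) in all. A further 361 cells (2.14%) had high counts of both tags, and 12420 (73.7%) lay on neither side. Cells of neither side are not all low in both tags. Some were high in 1 tag while the other tag was over its ceiling. Their counts reached 35916 CMO311 and 28472 CMO312 UMIs, with medians of 1091.5 and 366.

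The labels describe 1 sample of untreated epiblast stem cells and 1 of day 2 embryoid bodies grown from them, both of the mouse cell line Delmix, read with 3' droplet chemistry. Age, sex, strain and genotype are not given in the labels used here. The counts form 1 pooled matrix and neither tag name matches a sample label, so a side is not called either sample, and stem cells were not compared with embryoid bodies. With 1 library there are no replicates: no test was made, and every interval is a 95% interval that covers counting error only.

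Epiblast stem cells are pluripotent cells of the primed state, the state of the epiblast after implantation. Naive pluripotent cells, by contrast, resemble the epiblast before implantation and use factors such as Zfp42, Esrrb and Klf2. On leaving pluripotency, epiblast cells can pass through the primitive streak, where Eomes, Mixl1 and T act, towards mesoderm and endoderm. Caudal and neural fates involve Fgf8, retinoic acid and Meis and Hox factors. Interferons, released on viral infection, signal through Stat2 and Irf9 to raise genes such as Ifit1 and Isg15.

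Since the sides were selected on their tag counts, these are given only as a description. Cells of the CMO311 side had a median of 4086 CMO311 and 248 CMO312 UMIs, and cells of the CMO312 side 735 and 1903. The 72027 cell-free droplets, barcodes of 150 to 300 UMIs that were not called cells, had medians of 830 and 340. The rule kept CMO312 under 340 UMIs on the CMO311 side, so that side's other tag lies below the cell-free median by choice. On the CMO312 side the rule kept CMO311 under 1228 UMIs, which also limits its median. The authors' deposited table assigned 31 cells of the CMO311 side to CMO311 and 22 of the CMO312 side to CMO312, and left the other 1254 and 2753 unassigned. Its median probability for the side's own tag was 0.730 and 0.673. The sides are therefore a looser grouping than the authors' calls.

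**Figure D1:**
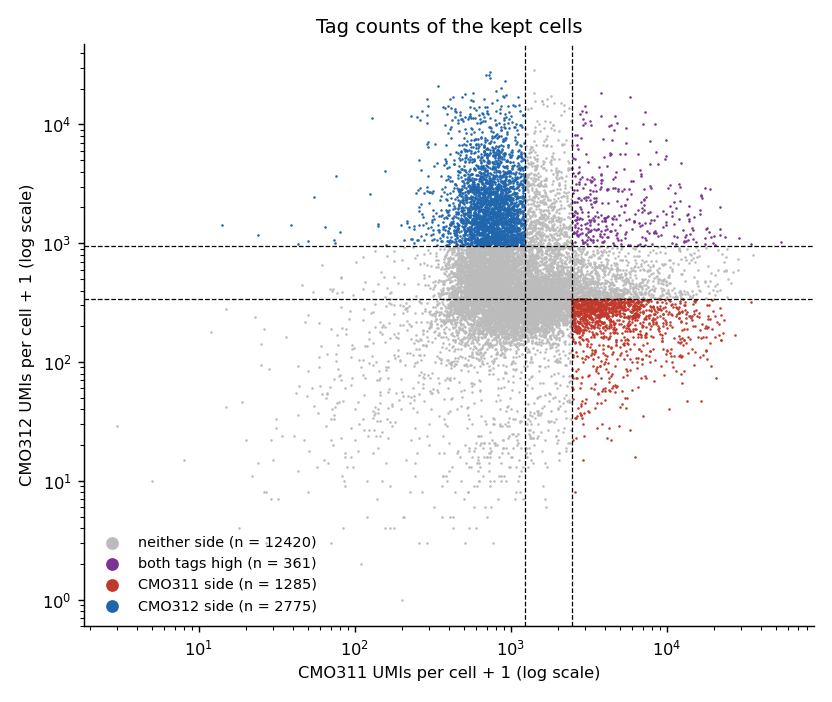
CMO311 UMIs (x axis) and CMO312 UMIs (y axis) of each kept cell, plus 1, on log scales; each point is a cell and dashed lines mark the thresholds. The 1285 CMO311 cells and 2775 CMO312 cells lie at the edges of the cloud of points that holds the 12420 cells of neither side.

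Depth differed little between the sides. Cells had a median of 6622 UMIs (1369 to 24905) with CMO311 and 6373 (1289 to 30660) with CMO312, and 2767 and 2693 genes. Mitochondrial UMIs had medians of 3.26% and 3.14%. The sides summed to 9295653 and 19495436 UMIs. Scrublet, a doublet caller, marked 12.8% (11.1 to 14.8%) of the CMO311 and 10.4% (9.30 to 11.6%) of the CMO312 cells, against 32.7% (27.9 to 37.8%) of the cells with both tags high. Doublets were left in.

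Gene levels are CPM, the counts of a gene per 1000000 UMIs summed over a side, and log2 ratios are CMO311 over CMO312 with 1 CPM added to each. A gene was called where the ratio was at least 2-fold and the mean of both sides at least 10 CPM. Of 9144 genes past that minimum, 300 were higher with CMO311 (3.28%) and 55 with CMO312 (0.601%), and their median log2 ratio was 0.00. These shares are the background for the counts of list members below. The genes higher with CMO311 included 13 interferon, 10 fibroblast, 7 chemokine and 6 Meis or retinoid genes of the lists below. Those higher with CMO312 included keratins and claudins, Id genes, Eomes and other streak and mesoderm genes.

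**Figure D2:**
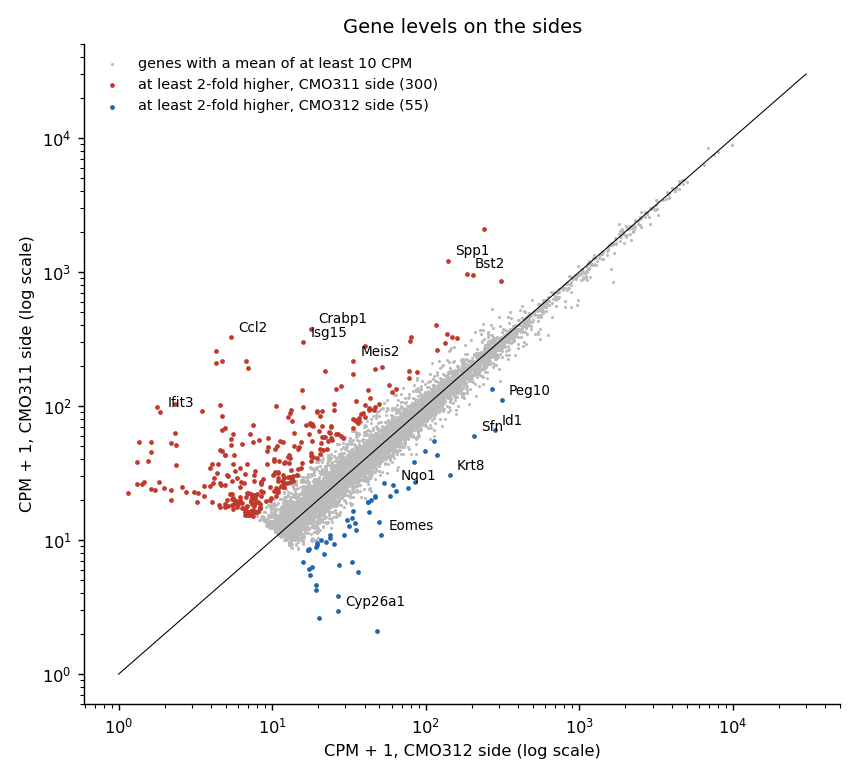
CPM plus 1 on the CMO311 side (y axis) against the CMO312 side (x axis), log scales; each point is 1 of the 9144 genes and the line marks equal levels. Red points are the 300 genes at least 2-fold higher with CMO311, blue points the 55 higher with CMO312.

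To set out which kinds of cell the sides held, each cell was thinned to 2000 UMIs, which left 1261 CMO311 and 2692 CMO312 cells, and was scored against 7 sets of markers. The sets are not exclusive. Caudal-marker cells, with at least 2 UMIs of Meis1, Meis2, Fgf8, Nkx1-2, Hoxb1 and Crabp2, made up 28.4% (25.9 to 31.0%) of the CMO311 and 7.54% (6.57 to 8.60%) of the CMO312 side, a difference of 20.8 percentage points (18.2 to 23.6). Fibroblast-marker cells made up 14.0% (12.2 to 16.1%) and 0.669% (0.397 to 1.05%). Naive-marker cells made up 25.2% (22.8 to 27.7%) and 14.6% (13.3 to 16.0%). All these sets were more frequent with CMO311.

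Epithelial-marker cells, with at least 3 UMIs of Krt8, Krt18, Krt19, Cldn4 and Cldn7, were more frequent with CMO312, at 1.27% (0.727 to 2.05%) against 6.39% (5.49 to 7.38%). Mesoderm-marker cells were too, at 3.01% (2.14 to 4.11%) against 7.28% (6.33 to 8.33%). Their markers were T, Mixl1, Mesp1, Hand1, Kdr, Bmp4, Msx2 and Foxf1, of which T itself was higher with CMO311. Of 234 such cells on the sides, 116 lay at the UMI minimum, against 197 of 561 caudal-marker and 64 of 188 epithelial-marker cells. Macrophage-marker cells numbered 11 of 1261 (0.872%, 0.436 to 1.56%) with CMO311 and 0 of 2692 with CMO312. The exact interval of the latter reaches 0.137%, and reading 0 as allowing 3 counts gives up to 0.111%. Two-cell-marker cells, which carry Zscan4-type genes of the early embryo, made up 0.872% and 0.817%, with intervals that overlapped. Cells in no set made up 33.6% (31.0 to 36.3%) of the CMO311 and 67.2% (65.4 to 69.0%) of the CMO312 side. Without thinning, the naive-marker shares were 43.7% and 42.0%, a difference of 1.72 points in place of 10.6.

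**Figure D3:**
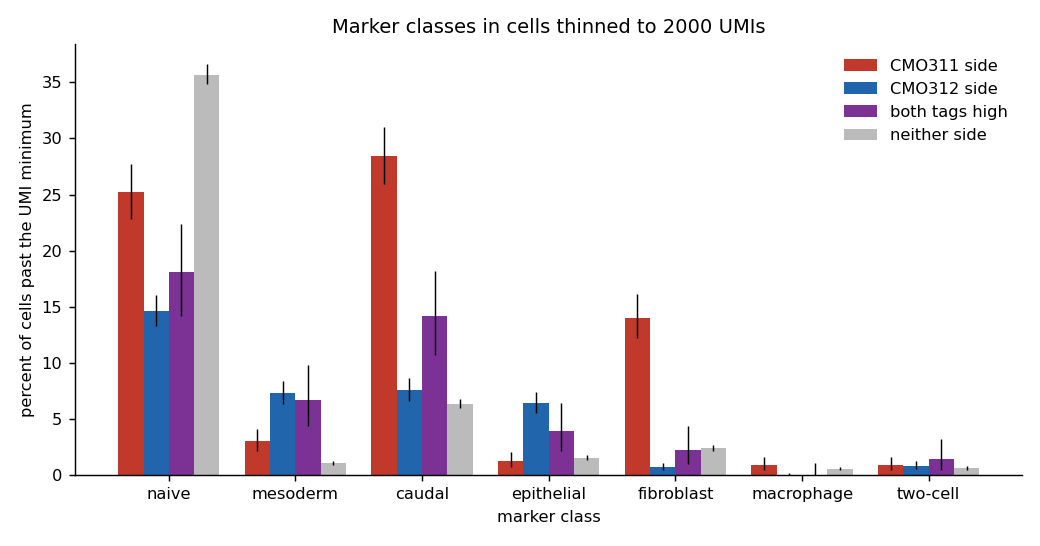
Percent of cells past the UMI minimum of each marker class (y axis), in cells thinned to 2000 UMIs, with exact binomial 95% intervals as error bars; classes can overlap. Caudal and fibroblast bars are highest with CMO311, and the naive bar is highest, at 35.7%, among cells of neither side.

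Cells of neither side were not midway between the sides. They were 35.7% (34.9 to 36.6%) naive-marker cells, above both sides, but 6.34% caudal-marker, 1.05% mesoderm-marker and 1.51% epithelial-marker cells. Their Isg15 level, 104 CPM, lay between the sides. Cells with both tags high had intermediate shares of caudal-marker (14.2%, 10.7 to 18.2%) and epithelial-marker cells (3.89%, 2.14 to 6.44%).

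The share of several sets moved with the amount of CMO312 tag. When the CMO312 side was split into 4 groups of near equal size from the lowest to the highest CMO312 count, mesoderm-marker cells made up 1.61%, 4.35%, 8.22% of the lower 3 and between 12.4% and 17.9% (the interval) of the highest. Caudal-marker cells made up 3.37%, 4.65%, 9.72% and 12.5%. Epithelial-marker cells stayed between 3.45% and 4.19% in the lower 3 groups and reached 14.2% (11.7 to 17.1%) in the highest. Krt8 stood at 55.2 CPM in the lowest and 332 CPM in the highest group, and Eomes at 21.3 and 95.7 CPM. Pou5f1, a core pluripotency factor, stood at 567 and 362 CPM. Median depth was 6332 UMIs in the lowest and 6582 in the highest group.

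Across 4 groups of the CMO311 side by CMO311 count, lowest to highest, caudal-marker cells made up 24.1%, 28.3%, 36.9% and 24.3%, and Isg15 stood at 268, 305, 368 and 254 CPM. Fibroblast-marker cells made up 9.81% (6.76 to 13.6%) in the lowest and 15.3% (11.5 to 19.8%) in the highest group, with overlapping intervals. Mesoderm-marker cells made up 1.58%, 3.17%, 3.15% and 4.15%, and the interval of the lowest group reached 3.65% where that of the highest began at 2.23%. Macrophage-marker cells made up 1.90%, 0.635%, 0.631% and 0.319%, or 6, 2, 2 and 1 cells, and Lyz2, a macrophage lysozyme gene, stood at 142, 26.0, 30.8 and 5.67 CPM.

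At the thresholds themselves the values changed by steps of different size. Cells just inside the CMO311 minimum (2456 to 3677 UMIs, 525 cells) had 268 CPM of Isg15 and 188 CPM of Meis2, and cells just outside (1228 to 2455 UMIs, 2019 cells) had 169 and 71.7 CPM. Cells just inside the CMO312 minimum (956 to 1433 UMIs, 867 cells) had 59.1 CPM of Krt8 and 211 CPM of Id1, and those just outside (478 to 955 UMIs, 2136 cells) had 36.7 and 189 CPM. The shares of naive-marker cells just inside and just outside were 28.4% and 40.7% for CMO311, and 17.4% and 22.0% for CMO312.

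Interferon response genes were higher with CMO311 as a group: 13 of 17 were called higher, against 3.28% of 9144 genes, and none was called higher with CMO312. The list's median log2 ratio was 2.71, against 0.00 over all 9144 genes. This list, like those of chemokines and of NRF2 targets below, was drawn up after values had been seen, so its count is no independent evidence of a direction. Of the others, Ifit2, Oasl1 and Rsad2 lay under the 10 CPM minimum with log2 ratios of 1.78, 1.99 and 2.71. Xaf1, an interferon-inducible regulator of apoptosis, was level at 109 and 116 CPM. The list's Ddx58, a sensor of viral RNA, carries the symbol Rigi in the matrix (ENSMUSG00000040296, matched by its identifier after values were seen); it stood at 60.4 and 16.4 CPM and was not counted among the 17.

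Isg15 (ENSMUSG00000035692), a ubiquitin-like protein that is joined to other proteins, stood at 299 CPM (288 to 310.1) with CMO311 and 14.9 (13.2 to 16.7) with CMO312, a ratio of 20.1 (17.8 to 22.7). It had a UMI in 33.7% (31.1 to 36.4%) of thinned CMO311 cells and 2.82% (2.23 to 3.52%) of CMO312 cells. Bst2 (ENSMUSG00000046718), also called tetherin, which holds budding virus at the cell surface, stood at 967 and 185 CPM and was found in 75.4% (72.9 to 77.8%) and 27.4% (25.7 to 29.1%) of cells. A UMI of Bst2 was thus found in most CMO311 cells, and one of Isg15 in fewer.

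The other members spanned the steps of the pathway. Of the signalling factors, Irf9 stood at 26.1 and 5.28, Irf7 at 23.6 and 0.975 and Stat2 at 33.7 and 14.3. Of the effectors, Ifit1 (ENSMUSG00000034459), which binds viral RNA, stood at 61.5 and 1.33 CPM, and Oasl2 at 92.4 and 12.3. Usp18, which removes Isg15 from proteins and damps the response, stood at 61.0 and 6.16 CPM. B2m, the light chain of MHC class I, stood at 279.8 and 39.4. Ifit3 (ENSMUSG00000074896) stood at 88.8 and 0.872 CPM, but it has a near-identical copy with which reads can be shared, so its level is uncertain. Ifitm3, also interferon-inducible and listed here with the germ cell genes, stood at 946 and 203 CPM.

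Fibroblast-marker cells of both sides together carried much of some of these genes, at 718 CPM of Isg15, 519.9 of Ifit3 and 1371 of B2m. Most were CMO311 cells (177, against 18 with CMO312). Within the class Isg15 stood at 799.9 and 13.8 CPM, Ifit3 at 579 and 6.91 and B2m at 1499 and 269. The CMO312 values rest on 2, 1 and 39 UMIs in the 18 cells. The interferon group was also higher with CMO311 in other cells. Caudal-marker cells (358 and 203), a set that can overlap others, held 1235 Isg15 UMIs with CMO311, where fibroblast-marker cells held 998. In caudal-marker cells Isg15 stood at 516 and 33.0 CPM and Bst2 at 1296 and 172. Without fibroblast- and macrophage-marker cells (1097 and 2757 cells left), 10 of the 17 were called higher, against 1.34% of 8976 genes, with Isg15 at 219.8 and 14.9 CPM. Among cells in no marker class (424 and 1809), 10 were called higher, against 1.09% of 8935 genes, with Isg15 at 154 and 13.6 and Bst2 at 949 and 206 CPM. Among naive-marker cells in no other class (285 and 362), 9 were called higher, against 0.736% of 8693 genes, with Isg15 at 76.5 and 16.3 CPM. Of CMO311 cells without a UMI of the fibroblast collagen Col3a1, 29.2% had a UMI of Isg15, against 2.70% of such CMO312 cells. Cell-free droplets held 53.7 CPM of Isg15 and 417 CPM of Bst2, above the CMO312 and below the CMO311 side.

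The promoter sequences of 4 of these genes, and of Xaf1, are shown because most interferon genes are switched on through 1 short element, which is bound by a complex that holds Stat2 and Irf9. Its core was searched as a pair of GAAA half-sites with any 2 bases between them, on either strand and with overlapping matches allowed, in the 250 bases before each gene start of RefSeq (build GRCm38.p6; that of the counts is not stated). A match was found in 978 of 32851 such windows (2.98%). That share is per window, whereas a list member counted as holding a match if any of its windows did. Of the 17 list members in the matrix, 13 had a window, and 7 of these (Ifit1, Ifit3, Isg15, Stat2, Bst2, B2m and Rsad2) held a match. Ifit2, Oasl1, Oasl2, Irf7, Irf9 and Xaf1 did not, which says only that these letters are not in this window. Of the genes without a match, Oasl2, Irf7 and Irf9 were called higher with CMO311. The windows shown are a selection that leaves these out. Each sequence runs 5′ to 3′ on the gene's strand and ends at the base before the gene start, with the matches in capitals:
Isg15 (chr4:156200819-156201068, minus strand): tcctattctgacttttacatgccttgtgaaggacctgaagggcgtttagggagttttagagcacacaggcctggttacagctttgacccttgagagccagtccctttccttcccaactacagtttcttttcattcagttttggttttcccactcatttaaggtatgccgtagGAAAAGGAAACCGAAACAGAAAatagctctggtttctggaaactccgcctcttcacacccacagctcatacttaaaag
Ifit1 (chr19:34640639-34640888, plus strand): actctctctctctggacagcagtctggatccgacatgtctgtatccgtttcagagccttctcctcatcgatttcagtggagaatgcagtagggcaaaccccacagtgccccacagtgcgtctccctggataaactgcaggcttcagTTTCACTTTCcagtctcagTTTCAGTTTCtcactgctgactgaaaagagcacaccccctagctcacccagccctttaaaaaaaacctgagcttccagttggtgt
Ifit3 (chr19:34583279-34583528, plus strand): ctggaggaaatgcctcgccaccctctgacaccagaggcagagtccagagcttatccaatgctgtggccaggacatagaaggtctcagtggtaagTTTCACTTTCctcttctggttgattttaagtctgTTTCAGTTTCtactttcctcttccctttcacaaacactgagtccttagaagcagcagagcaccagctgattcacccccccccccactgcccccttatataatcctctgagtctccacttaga
Bst2 (chr8:71537473-71537722, minus strand): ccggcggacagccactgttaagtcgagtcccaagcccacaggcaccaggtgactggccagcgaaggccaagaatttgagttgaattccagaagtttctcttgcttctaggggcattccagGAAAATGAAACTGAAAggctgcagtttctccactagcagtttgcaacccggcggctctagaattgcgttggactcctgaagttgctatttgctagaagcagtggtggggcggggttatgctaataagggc
Xaf1 (chr11:72301379-72301628, plus strand): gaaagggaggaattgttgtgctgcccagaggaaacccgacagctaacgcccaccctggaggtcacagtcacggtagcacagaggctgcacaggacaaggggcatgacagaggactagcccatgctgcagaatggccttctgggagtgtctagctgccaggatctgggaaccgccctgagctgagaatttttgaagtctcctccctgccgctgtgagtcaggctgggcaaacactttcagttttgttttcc

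Isg15 and Bst2 carry overlapping matches on the sense strand, Ifit1 and Ifit3 each carry 2 separate matches that read as the reverse complement, and the Xaf1 window carries none. A match is a description of the letters and not evidence that a factor was bound in these cells.

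Retinoid and Meis genes formed the next group higher with CMO311: 6 of 12 were called higher, against 3.28% of 9144 genes. With CMO312, 1 was called higher, against 0.601%. The list's median log2 ratio was 1.21. Meis2 (ENSMUSG00000027210), a homeodomain partner of Hox proteins, stood at 215 CPM (206 to 225) with CMO311 and 32.7 (30.2 to 35.3) with CMO312, a ratio of 6.59 (6.02 to 7.21), and Meis1 at 82.6 and 19.6. Meis2 had a UMI in 25.3% (22.9 to 27.8%) and 5.79% (4.94 to 6.75%) of cells, and in 3.80% of naive-marker cells of the sides. The retinoic acid binding protein Crabp2 stood at 72.2 and 17.3 CPM. Hoxb2, a retinoid-inducible Hox gene, stood at 24.1 and 10.5 CPM. The exception was Cyp26a1, the enzyme that breaks retinoic acid down, at 1.94 (1.15 to 3.06) and 25.8 (23.6 to 28.2) CPM.

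Crabp1 (ENSMUSG00000032291), another retinoid binding protein, stood at 376 and 16.9 CPM, but at 1879 CPM in fibroblast-marker cells, and at 111 and 16.6 CPM without fibroblast- and macrophage-marker cells. The Meis2 levels there were 234 and 32.1 CPM, and its log2 ratio of 2.83 was as large as the 2.68 in all cells. Among naive-marker cells in no other class the Meis levels were low on both sides, at 22.0 and 12.5 CPM for Meis2 and 10.6 and 10.9 for Meis1, and none of the 12 genes was called. Among cells in no marker class, 4 of the 12 were called higher with CMO311, against 1.09% of 8935 genes. That class, however, was set partly by low Meis1, Meis2 and Crabp2.

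The Hox list followed in part. Of 22 Hox genes, Hoxb2 alone passed the minimum of 10 CPM and was called, with CMO311, against 3.28% of 9144 genes. The median log2 ratio of 0.89 became -0.13 without fibroblast- and macrophage-marker cells. Hoxb1 stood at 12.9 and 2.77 CPM, with little in fibroblast-marker cells (0.718 CPM). Hoxc8 stood at 8.07 and 0.975 CPM, and at 49.6 CPM in fibroblast-marker cells.

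Some caudal and neural genes were also higher with CMO311. Fgf8 (ENSMUSG00000025219), made by streak and caudal epiblast cells to drive ERK signalling, stood at 180.3 and 77.1 CPM, and Wnt8a at 18.6 and 8.05. Within caudal-marker cells, which were picked partly by Fgf8, Fgf8 lay the other way at 526 and 741 CPM. Fabp7, a fatty acid binding protein of neural progenitors, stood at 45.3 and 8.31 CPM, and its ratio was larger without fibroblast- and macrophage-marker cells (52.2 and 7.23). Sox1, an early neural factor, stood at 13.3 and 2.41 CPM, under the mean minimum. In neuroectoderm as a list, 2 of 14 (Fabp7 and the adhesion gene Ncam1) were called higher with CMO311, against 3.28% of 9144 genes. None was called with CMO312, and the median log2 ratio was 0.39. Sox3, a neural and epiblast factor, was near level at 21.3 and 18.2 CPM, and Nes, the neural progenitor filament gene, stood at 32.0 and 48.4. Meis2 and Fgf8 occurred together: of CMO311 cells with a UMI of Meis2, 44.5% had one of Fgf8, against 12.5% of those without, and on the CMO312 side the shares were 35.9% and 9.11%.

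Of 14 fibroblast genes, 10 were called higher with CMO311, against 3.28% of 9144 genes, and none with CMO312. The list's median log2 ratio was 3.06. Col3a1 (ENSMUSG00000026043), a fibrillar collagen, stood at 216 (207 to 226) and 5.74 (4.73 to 6.91) CPM. It had a UMI in 12.4% (10.6 to 14.3%) of CMO311 and 0.929% (0.602 to 1.37%) of CMO312 cells, against 2.53% of naive-marker cells of the sides. Mmp3, a matrix protease, stood at 257 and 3.28 CPM and Dcn, a matrix proteoglycan, at 102 and 1.33. The genes Bgn, Ly6a and Tm4sf1, among the 15 leading CMO311 genes, stood at 91.4 and 2.51, at 217 and 3.74 and at 101 and 3.59 CPM. Mesenchymal genes outside that list followed: 7 of 14 (Vim, Twist2, Zeb1, Zeb2, Prrx1, S100a4 and Lgals1) were called with CMO311, against 3.28% of 9144 genes. Vim, an intermediate filament, stood at 341 and 136 CPM and at 1395 in fibroblast-marker cells. Without fibroblast- and macrophage-marker cells, none of the 14 fibroblast genes was called, and the summed level of the list went from 1209.9 and 83.4 CPM to 83.0 and 67.1. Those cells were picked by members of this list, so that loss follows in part from the choice. The fibroblast-marker class was not alike on the sides. Its 177 CMO311 and 18 CMO312 cells had Col3a1 at 1567 and 283 CPM and Krt8 at 21.6 and 435.

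Chemokines, which draw immune cells, followed the same cells. All 7 of the 10 that passed the minimum were called higher with CMO311, against 3.28% of 9144 genes. The median log2 ratio over the 10 was 3.53, and none was called without fibroblast- and macrophage-marker cells. Ccl2 (ENSMUSG00000035385) stood at 326 and 4.36 CPM and Ccl7 at 207 and 3.28. Ccl2 reached 1939.7 CPM in fibroblast-marker and 6292 CPM in macrophage-marker cells, and stood at 10.6 and 4.13 CPM without them. The sides also differed within fibroblast-marker cells (177 with CMO311, 18 with CMO312). There Ccl2 stood at 2161 and 34.5 CPM and Ccl7 at 1368 and 62.2, with 5 and 9 UMIs on the CMO312 side. Ccl2, Ccl7, Ccl8 and Ccl11 are close relatives, so reads may be shared among them.

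Macrophage genes lay in few cells. All 12 had log2 ratios above 0 and 1, the lysozyme gene Lyz2, was called, at 51.6 and 1.18 CPM, against 3.28% of 9144 genes called. Lyz2 had a UMI in 1.43% (0.848 to 2.25%) of CMO311 and 0.111% (0.0230 to 0.325%) of CMO312 cells and stood at 11628 CPM in the 11 macrophage-marker cells. The complement gene C1qa had 53 UMIs with CMO311 and 6 with CMO312. The summed level of the list went from 119 and 6.77 CPM to 8.62 and 6.82 without fibroblast- and macrophage-marker cells.

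Y-linked genes had few UMIs but the same side. Uty had 51 UMIs with CMO311 and 2 with CMO312, a ratio of 53.5 (14.1 to 454), Eif2s3y 21 and 1, and Kdm5d 15 and 1. Uty stood at 33.0 CPM in fibroblast-marker cells and 0.316 and 0.0774 CPM among cells in no marker class. Xist, which silences an X chromosome, stood at 235 and 276 CPM.

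**Figure D4:**
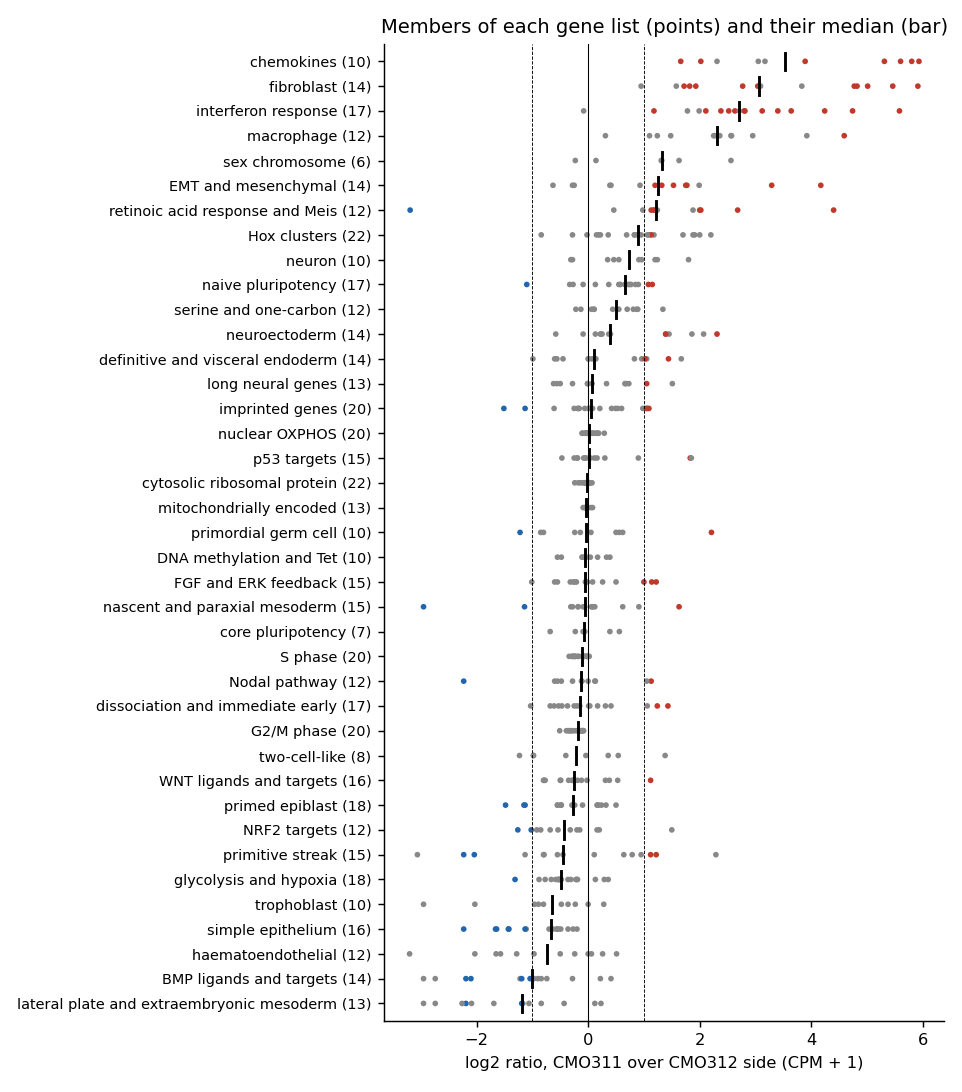
Log2 ratio of CPM plus 1, CMO311 over CMO312, for each member (points) of 39 gene lists, with the list median as a bar and list sizes in parentheses; red and blue points were called, and grey points past the dashed 2-fold lines lay under 10 CPM in the mean. Medians run from 3.53 for chemokines to -1.19 for lateral plate and extraembryonic mesoderm, and ribosomal, mitochondrial and OXPHOS lists lie at 0.

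Keratins and claudins of simple epithelium were higher with CMO312. All 16 genes of that list had log2 ratios below 0, and the median was -0.66. With CMO312, 6 were called higher, against 0.601% of 9144 genes, and with CMO311 none. Krt8 (ENSMUSG00000049382) stood at 29.5 CPM (26.1 to 33.2) with CMO311 and 142 (137 to 147) with CMO312, and its partner keratin Krt18 at 23.6 and 75.4. Krt8 had a UMI in 3.97% (2.96 to 5.19%) and 14.2% (12.9 to 15.6%) of cells, and in 5.13% of fibroblast-marker cells of the sides. The tight junction genes Cldn7 and Cldn3 stood at 25.9 and 84.2 and at 9.90 and 28.2 CPM. Sfn, an epithelial 14-3-3 protein, stood at 58.7 and 206. The pan-epithelial genes Cdh1 and Epcam, which epiblast cells also use, had smaller ratios, at 144 and 235 and at 241 and 347 CPM.

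These differences were of like size without fibroblast- and macrophage-marker cells, where 5 of the 16 were called higher with CMO312, against 0.758% of 8976 genes, with Krt8 at 30.8 and 139.7 CPM. Among cells in no marker class, which have little keratin by choice, 4 were called higher with CMO312, against 0.403% of 8935 genes. Krt8 and Krt18 occurred together on both sides: 31.4% of CMO312 cells with Krt8 had Krt18, against 4.89% of those without. Of CMO312 cells with Krt8, 49.2% had Id1, against 27.4% of those without, and 44.5% had Pou5f1, against 58.3%.

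Targets of bone morphogenetic proteins (BMP), signals that pattern the mesoderm, formed a second group. Of 14 BMP ligands and targets, 4 (Id1, Id2, Msx2 and Bambi) were called higher with CMO312, against 0.601% of 9144 genes, and none with CMO311. The list's median log2 ratio was -1.01. Id1 (ENSMUSG00000042745), an inhibitor of helix-loop-helix factors and an early BMP target, stood at 64.8 CPM (59.7 to 70.1) and 280.4 (273 to 288), and had a UMI in 10.2% (8.61 to 12.0%) and 30.5% (28.8 to 32.3%) of cells. Id2 stood at 53.9 and 112 and Id3 at 102 and 190.1 CPM. Msx1, a homeobox target, stood at 1.72 and 17.2 CPM. The ligand Bmp4 stood at 14.3 and 26.4 CPM and did not reach 2-fold. The Id1 difference was of like size in other cells, at 53.8 and 255 CPM among cells in no marker class and at 55.8 and 186 among naive-marker cells in no other class.

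Primitive streak genes split between the sides. Of 15, 2 were called higher with CMO311 (Fgf8 and Wnt8a) and 2 with CMO312 (Eomes and Lhx1). Over all 9144 genes the called shares were 3.28% and 0.601%. Eomes (ENSMUSG00000032446), a T-box factor of the anterior and early streak, stood at 9.90 (7.98 to 12.1) and 50.2 (47.1 to 53.5) CPM, and Mixl1, a homeobox gene of the streak, at 1.18 and 17.2. T, the brachyury gene, lay the other way at 51.3 and 29.2 CPM, short of 2-fold. Of CMO312 cells with Eomes, 9.21% had T, against 4.55% of those without. On the CMO311 side, with 27 Eomes cells, the shares were 3.70% and 7.29%.

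Nascent and paraxial mesoderm genes were evenly split, with 7 of 15 log2 ratios above 0, 8 below and a median of -0.06. Mesp1, an early factor of nascent mesoderm, and Rspo3, a WNT enhancer, were called with CMO312, at 1.61 and 19.2 and at 20.1 and 45.5 CPM. The growth factor receptor gene Pdgfra was called with CMO311, at 18.1 and 5.18 CPM, but stood at 109.9 CPM in fibroblast-marker cells and at 2.12 and 5.12 CPM without them and macrophage-marker cells. Of 13 lateral plate and extraembryonic genes, 11 had log2 ratios below 0, 2 (Msx2 and Bambi, also BMP targets) were called with CMO312 and the median was -1.19. Over all 9144 genes the called shares were 0.601% with CMO312 and 3.28% with CMO311. Hand1, a factor of lateral and extraembryonic mesoderm, had 11 UMIs (1.18 CPM) with CMO311 and 309 (15.8 CPM) with CMO312. Kdr, the receptor that marks precursors of blood and vessels, had 5 and 256 UMIs, a ratio of 0.0410 (0.0132 to 0.0968). Lmo2, of the same lineage, had 24 and 266 UMIs. None of 12 haematoendothelial genes was called, since most were under 10 CPM.

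The primed genes Car4, Cldn6 and Phlda2 were the 3 of 18 primed epiblast genes called, all with CMO312, at 22.2 and 63.5, at 37.1 and 83.4 and at 20.4 and 46.0 CPM. Of all 9144 genes, 0.601% were called with CMO312. The primed list's median log2 ratio was -0.28, and Fgf5, a defining primed gene, stood at 26.8 and 39.6 CPM. Other leading CMO312 genes were Peg10, a retrotransposon-derived imprinted gene, at 109 and 312 CPM, Dusp9, a phosphatase of ERK signalling, at 41.8 and 118, and Amot, a junction protein of the Hippo pathway, at 20.4 and 57.9. The potassium channel gene Kcnq3 stood at 44.8 and 98.1 CPM.

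Oxidative stress and glycolysis genes leaned to CMO312 with small ratios. Of 12 NRF2 targets, Nqo1, a quinone reductase, was called at 24.6 and 60.4 CPM and Gclm, a subunit of the first enzyme of glutathione synthesis, at 132 and 269.6. Of 18 glycolysis and hypoxia genes, 15 had log2 ratios below 0 and 1, Egln3, was called, at 11.8 and 30.8 CPM. The share called with CMO312 over all 9144 genes was 0.601%. Ldha and Pgk1 stood at 564 and 959.8 and at 337 and 621 CPM, short of 2-fold.

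None of 7 core pluripotency genes was called, though some differed beyond counting error. Pou5f1 (ENSMUSG00000024406) stood at 465 CPM (452 to 479.6) and 484 (475 to 494), Sox2 at 170.4 and 129.7 and Nanog at 69.4 and 46.8, a ratio of 1.48 (1.34 to 1.64). Utf1, a chromatin factor of pluripotent cells, stood at 99.4 and 160.2, a ratio of 0.620 (0.576 to 0.668). Naive genes leaned to CMO311: 13 of 17 had log2 ratios above 0, with a median of 0.66, but 2 (Klf4 and Nr0b1) were called with CMO311 and 1 (Tbx3) with CMO312. The called shares of all 9144 genes were 3.28% and 0.601%. Zfp42 (ENSMUSG00000051176) stood at 371 and 226 CPM, Klf2 at 311 and 197 and Esrrb at 42.1 and 22.0. Klf4 reached 89.1 CPM in fibroblast-marker cells and had a log2 ratio of 0.63 without them and macrophage-marker cells, short of 2-fold. Zfp42 had a UMI in 28.7% and 22.4% of cells, against 8.21% of fibroblast-marker cells. Within naive-marker cells in no other class the levels were 1090.4 and 889 CPM.

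Growth and housekeeping lists did not separate the sides at 2-fold. None of the 20 S phase, 20 G2/M phase, 20 nuclear OXPHOS, 13 mitochondrially encoded or 22 ribosomal protein genes was called, and their median log2 ratios lay between -0.18 and 0.02. All 20 G2/M phase and 19 of the 20 S phase genes had log2 ratios below 0, with medians of -0.18 and -0.11. Without fibroblast- and macrophage-marker cells these medians were -0.04 and 0.00. Serine and one-carbon genes leaned to CMO311, with 10 of 12 above 0 and a median of 0.50 but none called. Imprinted genes (20 in the list) lay on both sides, with Dlk1, H19 and Nnat called with CMO311 and Peg10 and Phlda2 with CMO312. The called shares over all 9144 genes were 3.28% and 0.601%. Without fibroblast- and macrophage-marker cells, the log2 ratio of H19 turned from 1.06 to -0.50 and that of Dlk1 went from 1.09 to 0.55, short of 2-fold, while Nnat stood at 1.14. H19 reached 384 CPM in fibroblast-marker cells. Lefty1, a Nodal inhibitor, and Trh, a hormone precursor, stood at 326 and 148 and at 177 and 86.9 CPM.

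Leaving out fibroblast- and macrophage-marker cells took the genes called with CMO311 from 300 to 120, of which 100 were shared, and those with CMO312 from 55 to 68, of which 44 were shared. Among cells in no marker class the counts were 97 (1.09% of 8935) and 36 (0.403%). Among naive-marker cells in no other class they were 64 (0.736% of 8693) and 31 (0.357%). Among genes of at least 50 CPM, the 3 with the largest ratios towards CMO311 after leaving out fibroblast- and macrophage-marker cells were Isg15, Usp18 and Meis2, and towards CMO312 Id1, Krt8 and Eomes. Whether cells of a kind take up more of 1 tag was not tested.

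**Figure D5:**
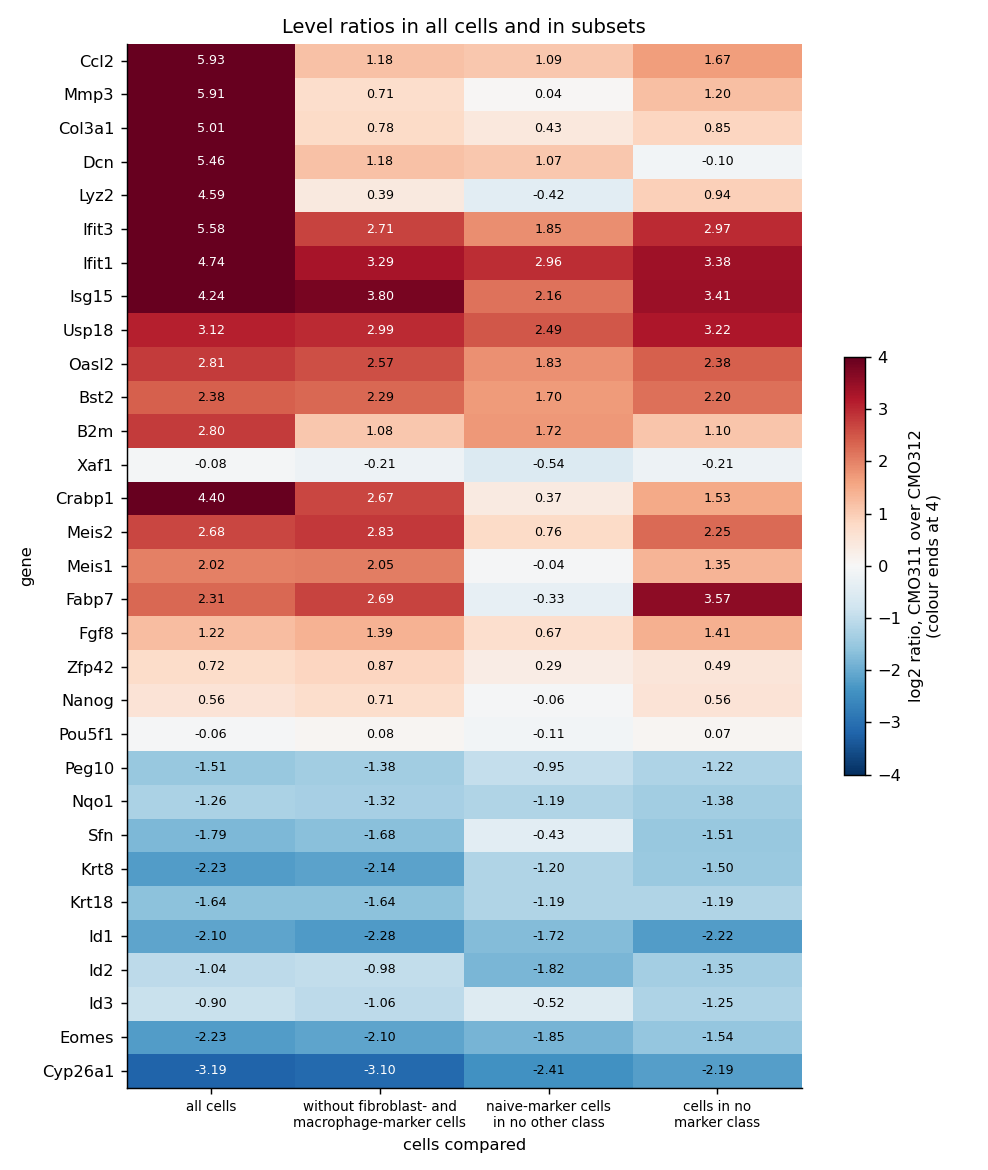
Log2 ratio of CPM plus 1, CMO311 over CMO312, of 31 genes (rows) in all cells and in 3 subsets (columns); red is higher with CMO311, blue higher with CMO312, and the colour scale ends at 4. Col3a1 goes from 5.01 to 0.78 without fibroblast- and macrophage-marker cells, Isg15 from 4.24 to 3.80 and Id1 from -2.10 to -2.28.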

How the data were processed

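Single-cell RNA counts were described for 2 mouse samples. Per the file headers, the authors made the deposited counts of UMIs per feature and barcode with Cell Ranger 8.0.1. The submitters' processing notes also name Seurat, without a version. The aligner settings, genome build and annotation are not given in the sources used here. Per the file headers, the deposited tag table holds the authors' tag call and a probability per tag (a fraction from 0 to 1). The labels describe 1 channel per sample, whereas the matrix of 2578653 barcodes is pooled. It holds 12 tags.

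The sides were cut from raw tag counts. UMIs were summed per side and scaled to CPM, with exact Poisson 95% intervals. Ratios used a pseudocount of 1 CPM, and calls a 2-fold ratio and a mean of 10 CPM. Cells were thinned to 2000 UMIs with a fixed seed, which left out 24 CMO311 and 83 CMO312 cells, and shares carry exact Clopper-Pearson intervals. Differences between shares combine those bounds. A count of 0 was read as allowing 3 counts. Free RNA was not removed. Scrublet was run in scanpy 1.11.5 at an expected rate of 0.1. Scripts used Python 3.11.15 and numpy 2.4.6, and were tested on simulated data.

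The members, the sides and the 39 gene lists were chosen with earlier results of these data known, and 3 lists (interferon response, NRF2 targets, chemokines) after values had been seen. Genes named were the 15 per direction with the largest ratio (at least 50 CPM on the higher side, no provisional, mitochondrial or ribosomal names), up to 4 per list with the largest ratio (at least 20 CPM), and Pou5f1, Sox2, Nanog and Xist. Other genes were named after their values were seen. Alternatives covered tag thresholds, cell filters, doublets, scaling, pseudocount, gene minimum, fold and cell subsets. Some genes of the lists are counted but are not reported here by name.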

Additional observations from a re-analysis of the deposited data

Results flagged for a closer look

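Of the 10 tags other than CMO311 and CMO312, which were not used above, 3 had low counts above the cell-free level on 1 side. CMO301 had 0.0389 UMIs per cell on the CMO312 side (95% interval 0.0319 to 0.0470, 108 UMIs in 2775 cells), against 0.0121 per cell-free droplet, and 0.00623 on the CMO311 side. CMO306 had 0.0202 UMIs per cell on the CMO312 side (0.0152 to 0.0262), against 0.00290 per cell-free droplet, and 0.00233 on the CMO311 side. CMO307 had 0.0218 UMIs per cell on the CMO311 side (0.0145 to 0.0315), against 0.00522 per cell-free droplet, and 0.00180 on the CMO312 side. Each was picked out because its lower bound lay above the upper bound of the cell-free droplets.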

How the results depend on the processing

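The counts of genes called depended on the cells and on the thresholds. The genes higher with CMO311, 300 as reported, numbered 120 without fibroblast- and macrophage-marker cells, 97 without cells of any marker class, 143 without fibroblast- and macrophage-marker cells and called doublets, 64 in naive-marker cells of no other class, 182 with 10 CPM added, 844 without a minimum, 601 at 1.5-fold and 172 at 3-fold. Those higher with CMO312, 55 as reported, numbered 36, 89 and 31 in the last 3 of these cell subsets, 23 with 10 CPM added, 182 without a minimum, 198 at 1.5-fold and 17 at 3-fold. The other 23 of 38 recomputed counts stayed within 1.5 times. The 3 subsets other than the one without fibroblast- and macrophage-marker cells were added after seeing the data.

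Of 976 recomputed ratios of 61 named genes past 2-fold, 21 changed sign, in 12 genes, all in those 4 subsets of cells, and the cause was not tested. The log2 ratio was -0.12 for Ccl11, -0.68 for Ier3 and -0.50 for H19 without fibroblast- and macrophage-marker cells. Without called doublets as well, it was -0.16 for Dcn, -0.13 for Ccl11, -0.02 for Lgals1, -0.76 for Ier3 and -0.67 for H19, and the medians of the EMT and chemokine lists were -0.08 and -0.18. Without cells of any class it was -0.43 for Ccl8, -0.10 for Dcn, -0.08 for Ccl11, -0.56 for Ier3 and -0.10 for H19. In naive-marker cells of no other class it was -0.42 for Lyz2, -0.33 for Fabp7, -0.04 for Meis1, -0.36 for Ier3, -0.15 for Fgf15, -1.95 for Hoxb2, -0.84 for Dlk1 and -0.30 for H19.

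No share difference past its interval changed sign, and 41 of 63 moved by less than the interval. In percentage points, CMO311 minus CMO312, naive-marker cells (10.6 as reported) gave 1.72 without thinning, 15.1 with tag minimums divided by 1.5 and 7.46 with sides cut by tag ratio. Mesoderm-marker cells (-4.27) gave -6.00 with 1 UMI fewer, -2.18 with 2 UMIs more and -5.96 with tag minimums times 1.5. Caudal-marker cells (20.8) gave 11.4 with 2 UMIs more, 28.2 at 4000 UMIs, 26.7 without thinning, 16.5 with lower tag minimums, 17.4 by tag ratio and 23.8 with a stricter cell filter. Epithelial-marker cells (-5.12) gave -9.44, -2.57, -11.5 and -15.9 with 1 UMI fewer, 2 more, 4000 UMIs and no thinning. Fibroblast-marker cells (13.4) gave 10.6 with lower tag minimums, 18.9 by tag ratio and 11.3 with the stricter filter, and macrophage-marker cells (0.872) gave 0.372 at 4000 UMIs, 3.47 by tag ratio and 0.213 with the stricter filter. No paired analysis was possible because there is 1 pooled library without replicates. Depth limits genes under 10 CPM, which rest on few UMIs.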
